A study of Mus musculus with 33 samples.

Results

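The 8 genes described here are glucocorticoid-responsive genes and the glucocorticoid receptor gene itself: Nr3c1, Tsc22d3, Fkbp5, Per1, Txnip, Zbtb16, Sgk1 and Ddit4. They are 8 of 53465 genes in the count table and were found by their symbols. The set was put together because Tsc22d3 and Txnip had higher counts in TSLPR- than in TSLPR+ regulatory T cells (Treg), so that difference is given as a description and carries no test. Of the 8, 7 passed the filter on low counts. Zbtb16 did not.

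The study measured RNA of colon Treg from Foxp3-yfp B6 mice (7 to 12 weeks old by the supplier's label), in which a fluorescent protein marks Foxp3+ cells. It sorted them by TSLPR, the receptor of the cytokine TSLP (gene Crlf2), and by ST2, the receptor of IL-33 (gene Il1rl1), to ask how both cytokines act on Treg during colorectal cancer. From each of 8 mice, 4 gates of CD45+ TCR+ CD4+ Foxp3+ cells were taken, with 200 cells in a library: negative for both receptors (TSLPR-ST2-), positive for 1 (TSLPR-ST2+ or TSLPR+ST2-) or positive for both (TSLPR+ST2+). Mice 1 to 4 were naive, and mice 5 to 8 carried colitis-associated cancer, giving 8 groups of 4 libraries. Cancer mice had been injected with azoxymethane (AOM, a carcinogen, 10 mg/kg) and then given 3 cycles of dextran sulfate sodium (DSS, which injures the colon lining) in drinking water, 7 days each, with tissue taken 2 weeks after the last one. No group had AOM or DSS alone, so tumour, earlier colitis and chemical cannot be told apart. All groups share the genotype. One more library holds naive Foxp3-negative CD44low T cells.

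Glucocorticoids are steroid hormones that cross the cell membrane and bind the glucocorticoid receptor, which waits in the cytoplasm in a complex of heat shock proteins and immunophilins. The bound receptor enters the nucleus and binds DNA, often at a palindromic element, and raises genes that damp inflammation and change metabolism. Tsc22d3 encodes GILZ, a leucine zipper protein that restrains NF-kB and AP-1. Fkbp5 encodes the immunophilin FKBP51, which lowers the receptor's affinity for hormone in a feedback loop. Txnip binds thioredoxin and limits glucose uptake, Sgk1 is a serum- and glucocorticoid-induced kinase, Ddit4 (REDD1) restrains mTORC1, Per1 is a repressor of the circadian clock, and Zbtb16 encodes the transcription factor PLZF of innate-like T cells. Several of these genes also answer to other signals, such as glucose for Txnip, FoxO factors for Txnip and Tsc22d3, and hypoxia for Ddit4.

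Because all members are described as responsive to 1 receptor, the sequence just upstream of their annotated starts was read. RefSeq windows of the build GRCm38.p6 were at hand for 6 members, 14 windows in all, taken from 250 bases before each start to the start. The palindrome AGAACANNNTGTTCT, searched on both strands, was in 1 of the 14 windows and in 0.00913% of 32851 windows of this length. The window belongs to Sgk1, where the palindrome spans -189 to -175 from the start. Sgk1 had more windows than any other member. A single arm, AGAACA on either strand, was in 4 of the 14 windows (3 of Sgk1 and 1 of Tsc22d3) and in 16.1% of all windows, and each palindrome also counts as single arms. The FoxO-type motif GTAAACA was in 1 of the 14, that of Txnip, against 3.17% of all windows. The E-box CACGTG, which clock factors bind, was in 3 of the 14, of Fkbp5, Per1 and Sgk1, against 6.02%. A match of letters is not a bound site. The following 4 stretches are written 5′ to 3′ on the gene's strand, each with 1 of these motifs in capitals. The Sgk1 stretch also holds an E-box and a further single arm, which overlap near its 5′ end and stay in lower case. They are chr10:21993640-21993889 (+) for Sgk1 with the palindrome, chrX:140600660-140600772 (-) for Tsc22d3 with a single arm, chr3:96557707-96557956 (+) for Txnip with the FoxO-type motif, and chr17:28486150-28486399 (-) for Fkbp5 with the E-box. For Tsc22d3 the 113 bases outside protein-coding exons are given.
Sgk1: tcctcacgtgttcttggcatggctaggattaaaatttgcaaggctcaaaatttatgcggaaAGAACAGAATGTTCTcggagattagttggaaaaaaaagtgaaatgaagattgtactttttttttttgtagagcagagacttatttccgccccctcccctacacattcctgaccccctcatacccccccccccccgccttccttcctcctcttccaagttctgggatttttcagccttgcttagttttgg
Tsc22d3: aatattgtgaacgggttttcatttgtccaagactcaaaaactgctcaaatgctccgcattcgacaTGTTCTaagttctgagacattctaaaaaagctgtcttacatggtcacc
Txnip: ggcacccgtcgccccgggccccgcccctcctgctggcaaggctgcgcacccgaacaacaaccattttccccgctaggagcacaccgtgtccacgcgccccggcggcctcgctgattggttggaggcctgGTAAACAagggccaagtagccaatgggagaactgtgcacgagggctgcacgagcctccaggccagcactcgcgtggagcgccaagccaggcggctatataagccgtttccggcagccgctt
Fkbp5: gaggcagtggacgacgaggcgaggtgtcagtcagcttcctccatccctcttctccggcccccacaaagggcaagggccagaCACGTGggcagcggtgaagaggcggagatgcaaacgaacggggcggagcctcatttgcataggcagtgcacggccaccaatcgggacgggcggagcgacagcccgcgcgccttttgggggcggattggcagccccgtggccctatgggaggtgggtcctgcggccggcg

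The libraries followed their labels in the sort genes, with 1 exception. Il1rl1 was 0 to 11.0 CPM (counts relative to the library total, which TMM scaled between libraries) in 16 ST2- libraries and 95.6 to 309 CPM in 16 ST2+ libraries. Crlf2 was 8.76 to 30.5 CPM in TSLPR- and 25.2 to 57.2 CPM in TSLPR+ libraries. The overlap comes from mouse 5, whose TSLPR-ST2+ library had 30.5 CPM of Crlf2 and whose TSLPR+ST2+ library had 25.2 CPM, against the order of the labels. Foxp3 was 59.9 to 222 CPM in all 32. Totals were 4038718 to 8839946 counts, and each member but Per1 and Zbtb16 had at least 30 counts in every library. Markers of macrophages and dendritic cells were present too, and their sums differ between gates as given beside the results.

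Compared per kilobase of exon, Txnip and Tsc22d3 were far above the other members. Over 32 libraries Txnip averaged 271 CPM per kilobase (range 189 to 359) and Tsc22d3 112 (62.3 to 172), and neither range overlaps that of the next gene down. Nr3c1 followed with 19.1 (12.5 to 35.6), Sgk1 with 11.2 (1.63 to 41.6), Ddit4 with 8.79 (3.88 to 16.6), Fkbp5 with 3.98 (1.48 to 10.5) and Per1 with 1.98 (0 to 3.60). Each of these 5 overlaps its neighbours in this order. The spread between mice within a group also differed by gene, with a coefficient of variation of 9.55% for Txnip, 14.2% for Tsc22d3, 20.7% for Nr3c1, 29.4% for Per1, 31.3% for Ddit4, 41.5% for Fkbp5 and 64.0% for Sgk1. Zbtb16 had counts in 3 of 32 libraries, with 44 counts at most, so no Treg group showed it in more than 2 mice.

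Tsc22d3 (chromosome X, 140539528 to 140600659, - strand, GRCm38) was the member with the widest gap between TSLPR gates. Naive mice 1 to 4 had 678, 638, 745 and 511 CPM in TSLPR-ST2- Treg and 316, 307, 396 and 311 CPM in TSLPR+ST2- Treg. In ST2+ Treg the same mice had 729, 613, 732 and 633 CPM without TSLPR and 354, 407, 350 and 417 CPM with it. Every naive TSLPR- library was above every naive TSLPR+ library. Cancer mice 5 to 8 had 621, 567, 427 and 594 CPM in TSLPR-ST2- Treg and 387, 331, 455 and 333 CPM in TSLPR+ST2- Treg. In ST2+ Treg they had 626, 473, 540.1 and 667 CPM without TSLPR and 332, 396, 271 and 343 CPM with it. The one pair in the other direction was mouse 7 in ST2- Treg, at 427 against 455 CPM. In all, Tsc22d3 was lower with TSLPR in 15 of 16 pairs of gates from 1 mouse, and the fitted difference was -0.78 ± 0.07 on the log2 scale (SE), or 1.71-fold lower in TSLPR+ Treg. These are bulk libraries, in which fewer cells of a type and less RNA per cell cannot be told apart.

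Txnip (chromosome 3, 96557957 to 96561883, + strand) had a smaller gap with less spread. The 16 TSLPR- libraries had 760 CPM at the lowest, a median of 988 CPM and 1120 CPM at the highest. The 16 TSLPR+ libraries had 592, 710.2 and 957 CPM. The ranges overlap through 2 libraries, the TSLPR-ST2+ library of cancer mouse 6 (760 CPM) and the TSLPR+ST2+ library of naive mouse 4 (957 CPM). Within mice Txnip was lower with TSLPR in 16 of 16 pairs, with log2 differences from -0.81 to -0.02, and the fitted difference was -0.48 ± 0.05 (1.39-fold lower). In mouse 5, where Crlf2 went against the labels, the ST2+ libraries had 1085 CPM of Txnip without TSLPR and 752 CPM with it, and 626 and 332 CPM of Tsc22d3, in the order seen in the other mice. The antisense gene Gm15441 shares 606 exon bases with Txnip, and no source used here says whether counting used the strand, so reads of the pair may not be told apart. Gm15441 itself was at 0 to 8.71 CPM.

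**Figure D1:**
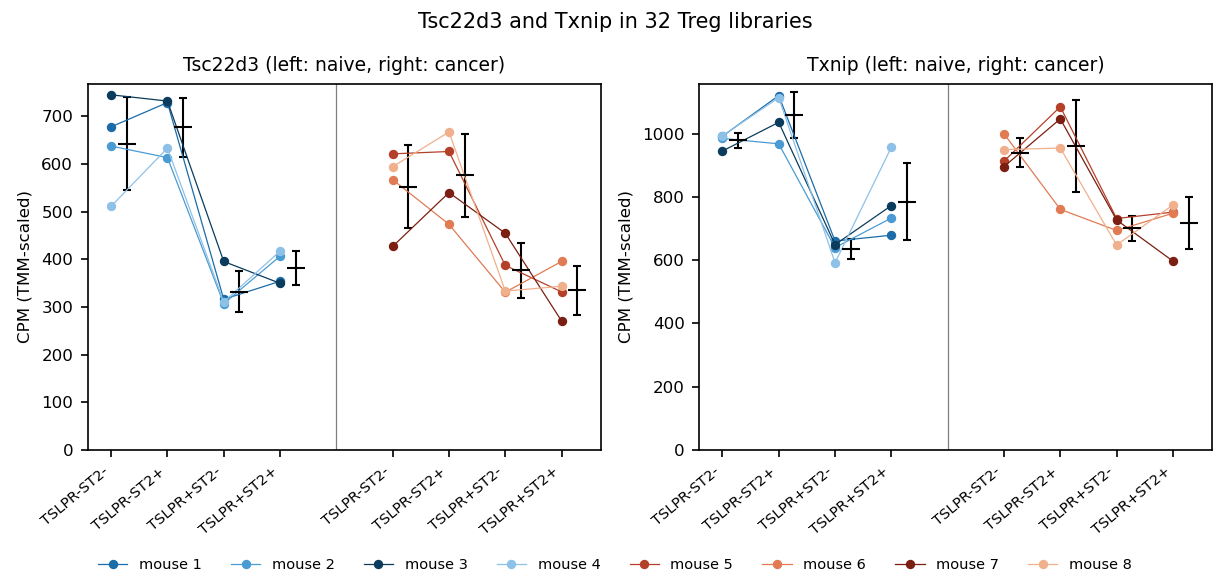
Tsc22d3 and Txnip in CPM (y axis) by gate (x axis), naive mice at the left and cancer mice at the right of each panel. Dots are libraries, lines join the gates of a mouse, and the black mark is the group mean ± SD (n = 4 mice). In both panels the TSLPR- gates lie above the TSLPR+ gates, with the Tsc22d3 pair of mouse 7 in ST2- Treg (427 and 455 CPM) as the exception.

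The other members had smaller or opposite differences, or larger errors. On the same contrast the fitted log2 difference was 0.49 ± 0.19 for Fkbp5, which was higher with TSLPR in 13 of 16 pairs, and 0.42 ± 0.32 for Per1, higher in 10 of 16. It was -0.25 ± 0.17 for Ddit4, -0.11 ± 0.10 for Nr3c1 and -0.02 ± 0.27 for Sgk1. Thus 5 of 7 members were on the lower side, but Tsc22d3 and Txnip were so by the choice of the set. Sgk1 kept its sign in only 6 of 15 alternative fits. The median of the 7, which includes Tsc22d3 and Txnip, was -0.11 against 0.01 over all genes tested. No test is attached, since the set was chosen on this contrast, in which 13.4% of 14861 genes passed in either direction, 7.97% higher and 5.46% lower.

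Whether the TSLPR gap itself changes with cancer or with ST2 was not used to choose the genes and was tested. For Tsc22d3 the gap differed between cancer and naive mice by 0.22 ± 0.14 (edgeR adjusted p = 0.730) and between ST2+ and ST2- Treg by -0.05 ± 0.14 (adjusted p = 1.00). For Txnip these differences were 0.10 ± 0.10 (edgeR adjusted p = 0.881) and 0.10 ± 0.10 (adjusted p = 0.971). The smallest adjusted p among members in the test with status was that of Ddit4, at -0.69 ± 0.35 (adjusted p = 0.634), and Per1 had 0.73 ± 0.64 (adjusted p = 0.856). No member passed in either test, and edgeR called 0 of 14861 genes in both, with 1178 and 1094 genes at an unadjusted p under 0.05, while DESeq2 called 58 and 120 genes.

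Part of the FoxO and quiescence list moved in the same direction as Tsc22d3 and Txnip across the TSLPR gates. Of 20 genes tested, 12 were lower in TSLPR+ Treg, none was higher and 8 did not pass, where 5.46% of all genes were lower. The median log2 difference was -0.36 against 0.01 over all genes. The list was chosen with earlier results of these data known, so its count and the adjusted p of its genes are descriptions. Klf2, a factor that keeps lymphocytes quiescent and circulating, went from 500.05 CPM in TSLPR- to 270 CPM in TSLPR+ Treg (1.86-fold lower, edgeR adjusted p = 1.11e-11). S1pr1, the receptor that guides lymphocytes out of tissue, was 1.98-fold lower (862 to 439 CPM, adjusted p = 7.58e-11). Lef1, a factor of naive-like T cells, was 1.57-fold lower (437 to 278 CPM, adjusted p = 7.18e-08).

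Other glucocorticoid-responsive genes were split in that comparison. Of 21 tested, 4 were higher and 3 lower in TSLPR+ Treg, with a median of -0.14 against 0.01 over all genes. Of all genes, 7.97% were higher and 5.46% lower. Mt1, a metal-binding metallothionein, was 4.98-fold higher (5.03 to 26.4 CPM, edgeR adjusted p = 0.00132) and the MAP kinase phosphatase Dusp1 1.54-fold higher (107 to 167 CPM, adjusted p = 0.00228). Zfp36l2, an mRNA decay factor, was 1.32-fold lower (90.1 to 68.1 CPM, adjusted p = 0.00165) and Pik3r1, a regulatory subunit of PI3 kinase, 1.22-fold lower (217 to 178 CPM, adjusted p = 0.00334). Of 20 receptor chaperones and coregulators, 0 were higher and 3 lower, among them Fkbp4 (450.1 to 357 CPM, adjusted p = 0.000207), whose product FKBP52 competes with FKBP51 for the receptor complex. Among 19 paralogs and partners of the members, Txn1, the thioredoxin that TXNIP binds, was 1.63-fold higher in TSLPR+ Treg (152 to 257 CPM, adjusted p = 3.67e-05), opposite in direction to Txnip. Nedd4l, a ubiquitin ligase that SGK1 phosphorylates, was 1.75-fold lower (26.7 to 16.1 CPM, adjusted p = 0.0322). Of 15 clock genes 3 were higher, among them Rora and Bhlhe40, and 1 was lower, the output factor Dbp (33.7 to 19.7 CPM, edgeR adjusted p = 0.00153).

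Markers of other cells moved with TSLPR as well. Of 8 macrophage and dendritic cell markers 7 were higher in TSLPR+ Treg, and their summed level was 2.51 to 2536 CPM (median 236) in TSLPR- and 140 to 2177 CPM (median 521) in TSLPR+ libraries. Of 5 B and plasma cell markers 4 were higher, and 3 of 5 epithelial markers. Of 7 markers of innate-like T, NK and innate lymphoid cells 3 were higher. Over all genes 7.97% were higher. With the log2 of the macrophage sum as a covariate, an alternative chosen after seeing the data, the difference was -0.80 ± 0.09 for Tsc22d3 and -0.47 ± 0.07 for Txnip. The part of cells other than macrophages and dendritic cells was not tested.

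By the likeness of their 8 group means, the genes closest to Tsc22d3 among 7089 with a mean of at least 20 CPM were Safb (Pearson r = 0.994), Itga6 (0.984), Ddb2 (0.980), Zfp263 (0.978) and Klf2 (0.973). Closest to Txnip were Klf3 (0.985), Top2b (0.965), Elovl5 (0.956), Safb (0.955) and Sec22c (0.952). Tsc22d3 and Txnip had r = 0.974 with each other. Group means of Itga6, a laminin-binding integrin chain, ran from 98.6 to 231 CPM and those of Klf2 from 228 to 536 CPM, while the scaffold protein gene Safb spanned only 111 to 160 CPM. These 8 points share libraries and mice, so r is a description. Tsc22d3 and Txnip were chosen for higher counts in TSLPR- Treg, so a high r between them was partly fixed by that choice. For the same reason the ranking favours genes that differ between TSLPR gates.

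**Figure D2:**
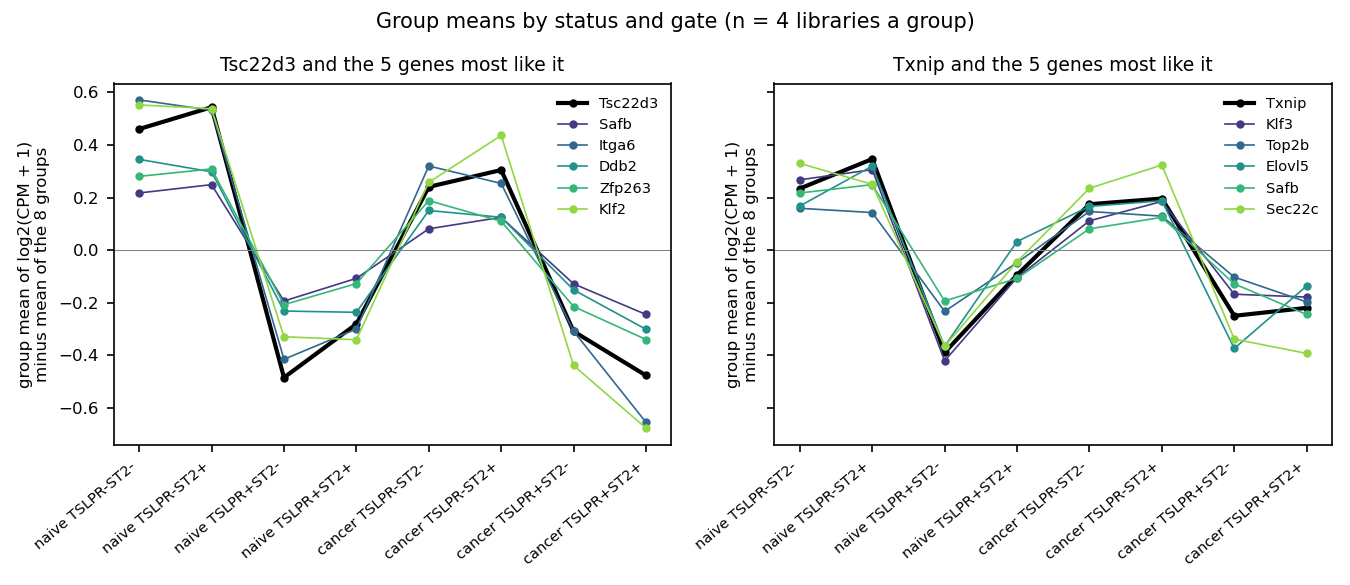
Group means of log2(CPM + 1) minus their mean over the 8 groups (y axis) by status and gate (x axis), each from 4 libraries, for Tsc22d3 (left, black) and Txnip (right, black) with the 5 genes most like each. All lines are above 0 in the TSLPR- gates, and r with the black line is 0.973 or more at the left and 0.952 or more at the right.

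Between ST2 gates a different set of members moved. Sgk1, Fkbp5 and Nr3c1 were higher in ST2+ Treg, 3 of the 7 tested, where 6.04% of 14861 genes passed in either direction and 3.7% were higher. None was lower, and the median of the 7 was 0.12 on the log2 scale against -0.0050 over all genes.

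Sgk1 (chromosome 10, 21882184 to 21999903, + strand) changed the most. Naive mice 1 to 4 had 54.7, 46.3, 43.5 and 25.6 CPM in TSLPR-ST2- Treg and 75.4, 78.1, 109 and 37.1 CPM in TSLPR-ST2+ Treg. With TSLPR they had 60.0, 38.8, 19.6 and 98.0 CPM without ST2 and 82.4, 61.4, 38.2 and 23.6 CPM with it. Sgk1 was thus higher with ST2 in 7 of 8 naive pairs, the exception being mouse 4 among TSLPR+ Treg. Cancer mice 5 to 8 had 16.8, 35.5, 18.5 and 10.9 CPM in TSLPR-ST2- Treg and 74.5, 55.9, 108 and 99.6 CPM in TSLPR-ST2+ Treg. With TSLPR they had 7.99, 20.2, 46.6 and 8.53 CPM without ST2 and 54.4, 72.7, 204 and 29.9 CPM with it. All 8 cancer pairs were higher with ST2. Over both statuses the fitted difference was 1.23 ± 0.28, or 2.34-fold (edgeR adjusted p = 0.00642, higher in 7 of 8 mice). The ST2 difference was larger in cancer than in naive mice by 1.71 ± 0.55, which did not pass over all genes (adjusted p = 0.508, unadjusted p = 0.00421).

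Fkbp5 (chromosome 17, 28399094 to 28517527, - strand) was 1.64-fold higher in ST2+ Treg. The 16 ST2- libraries had 14.0, 28.3 and 42.2 CPM as the lowest, median and highest, and the 16 ST2+ libraries 16.9, 49.1 and 99.2 CPM. The fitted difference was 0.71 ± 0.19 (edgeR adjusted p = 0.0200), and Fkbp5 was higher in 8 of 8 mice and 14 of 16 pairs. Naive mouse 3 held both of the highest libraries, at 70.9 CPM in TSLPR-ST2+ and 99.2 CPM in TSLPR+ST2+ Treg, where mice 1, 2 and 4 had 16.9, 19.5 and 18.8 CPM and 37.8, 48.8 and 35.5 CPM. Without mouse 3 the difference was 0.45 (edgeR adjusted p = 0.0783), without mouse 5 it was 0.68 (0.0656) and without mouse 8 also 0.68 (0.0698), so 3 of 8 mice each decide the call. In cancer mice 5 to 8 Fkbp5 was 28.0, 28.4, 22.0 and 22.4 CPM in TSLPR-ST2- and 61.3, 36.5, 29.0 and 49.5 CPM in TSLPR-ST2+ Treg. Among TSLPR+ cancer Treg it was 40.1, 42.2, 32.1 and 39.0 CPM without ST2 and 59.4, 49.8, 58.6 and 59.5 CPM with it. Group means were lowest in TSLPR-ST2- Treg (23.4 CPM in naive and 25.2 CPM in cancer mice) and highest in TSLPR+ST2+ Treg (55.4 and 56.8 CPM). Single mice did not all follow that order: the lowest gate was TSLPR+ST2- in mice 1 and 3 and TSLPR-ST2+ in mouse 2, and the highest was TSLPR-ST2+ in mouse 5. The gap by ST2 did not differ between TSLPR gates beyond error (0.19 ± 0.37, adjusted p = 1.00).

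Nr3c1 (chromosome 18, 39410545 to 39519421, - strand), the receptor gene, had the smallest of these differences. It was 96.2, 128 and 184 CPM (lowest, median, highest) in 16 ST2- libraries and 113, 159 and 274 CPM in 16 ST2+ libraries. The fitted difference was 0.34 ± 0.10, or 1.26-fold (edgeR adjusted p = 0.0309), and Nr3c1 was higher in 7 of 8 mice and 15 of 16 pairs. The TSLPR+ pair of mouse 6 went the other way, at 159 CPM without ST2 and 122 CPM with it. The highest library was the TSLPR-ST2+ one of mouse 5, at 274 CPM. Without both ST2+ libraries of mouse 5 the difference was 0.28 (edgeR adjusted p = 0.0750). Leaving out mouse 1, 3, 4, 5, 7 or 8 in turn also ended the call (adjusted p = 0.0540 to 0.123), with the difference at 0.28 to 0.37.

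Tsc22d3, Per1 and Ddit4 had fitted ST2 differences of 0.04 ± 0.07, 0.03 ± 0.32 and -0.06 ± 0.17 (edgeR adjusted p = 0.835, 1.00 and 0.938). Txnip had 0.12 ± 0.05 (adjusted p = 0.144), higher in 13 of 16 pairs, and passed with DESeq2 alone (adjusted p = 0.0438). Thus Tsc22d3 and Txnip, on which the set was built, did not pass by ST2 in edgeR.

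**Figure D3:**
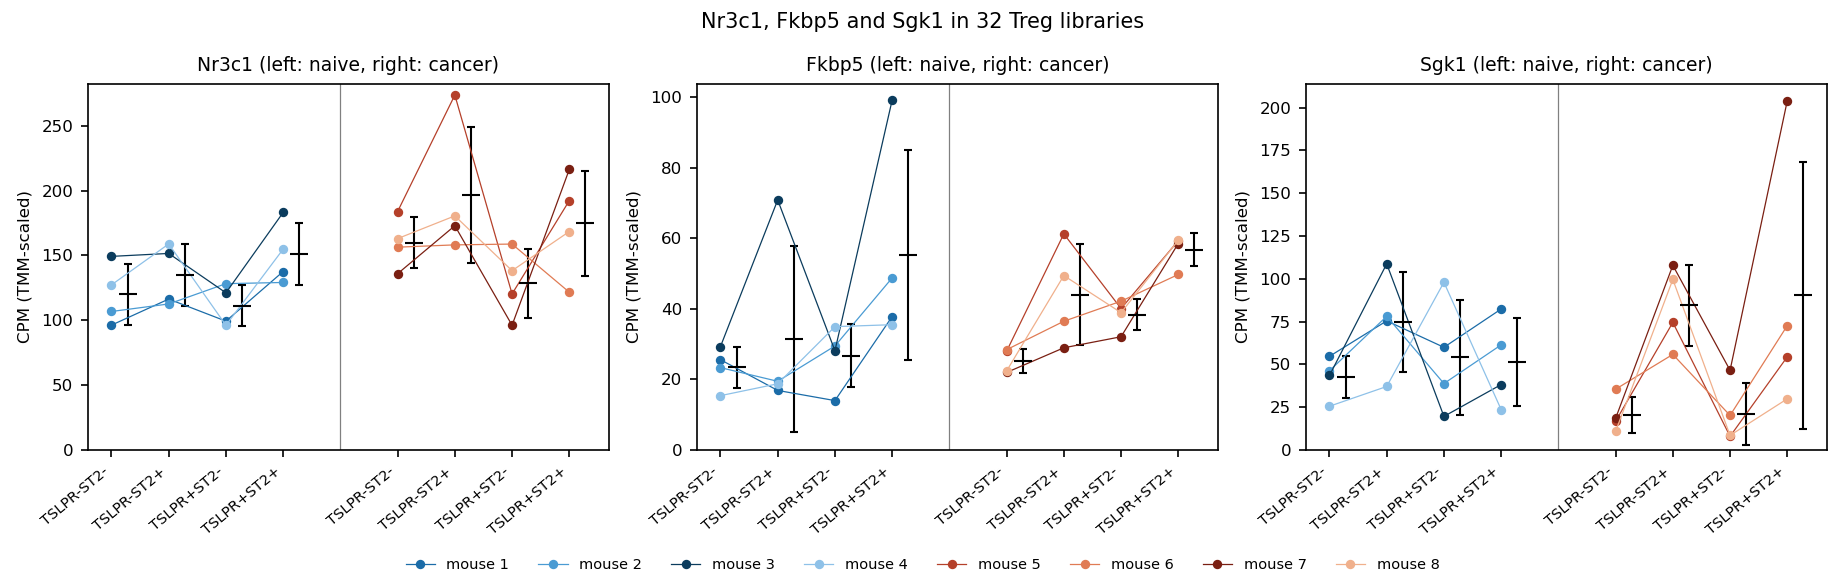
Nr3c1, Fkbp5 and Sgk1 in CPM (y axis) by gate (x axis), naive mice at the left and cancer mice at the right of each panel. Dots are libraries, lines join the gates of a mouse, and the black mark is the group mean ± SD (n = 4 mice). Fkbp5 of mouse 3 (70.9 and 99.2 CPM) and Sgk1 of mouse 7 (204 CPM) stand above their groups.

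The ST2 gates also differed in macrophage and dendritic cell markers. In ST2+ Treg 7 of 8 were higher, against 3.7% of all genes. The summed level of these markers was 2.51 to 1199 CPM (median 149) in ST2- and 316 to 2536 CPM (median 755) in ST2+ libraries. All 8 markers had counts, among them Lyz2 (160 against 749 CPM) and Csf1r (8.32 against 43.5 CPM). The sums overlapped between ST2- and ST2+ libraries in TSLPR+ Treg of cancer mice (140 to 1199 and 382 to 782 CPM) and in none of the other 3 pairs of groups, such as TSLPR+ Treg of naive mice (215 to 622 and 1332 to 2177 CPM). In the overlapping pair the median sum was 345 CPM without ST2 and 549 CPM with it. Sgk1 and Fkbp5 were higher with ST2 there in 4 of 4 mice and Nr3c1 in 3 of 4. The sums were not matched within a mouse, so these counts do not test the part of macrophages. With the log2 of the sum as a covariate, chosen after seeing the data, the ST2 differences were 1.56 ± 0.55 for Sgk1, 0.56 ± 0.36 for Fkbp5 and 0.34 ± 0.18 for Nr3c1. The errors were larger than without it, and none of the 3 passed (edgeR adjusted p = 0.399, 0.862 and 0.738), while calls over all genes went from 897 to 35. Foxp3 was 1.32-fold lower in ST2+ Treg (adjusted p = 0.0240), and its part in these results was not tested.

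Of 20 receptor chaperones and coregulators, 4 were lower in ST2+ Treg, 0 were higher and 16 did not pass. The median log2 difference was -0.14 against -0.0050 over all genes, of which 2.33% were lower. Fkbp4 fell 1.27-fold (448 to 359 CPM, edgeR adjusted p = 0.000655), the co-chaperone Stip1 1.19-fold (620.2 to 519 CPM, adjusted p = 0.00132), Hspa8 1.11-fold (1653 to 1484 CPM, adjusted p = 0.0153) and Hsp90ab1 1.12-fold (2312 to 2068 CPM, adjusted p = 0.0167).

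Among 21 other glucocorticoid-responsive genes 4 were higher in ST2+ Treg and 1 lower, with a median of 0.18 against -0.0050 over all genes. Of all genes, 3.7% were higher and 2.33% lower. Il7r, the IL-7 receptor chain, rose 1.67-fold (282 to 469 CPM, edgeR adjusted p = 3.50e-06), and Mt1 5.10-fold (5.05 to 26.4 CPM, adjusted p = 0.00251). Anxa1, an anti-inflammatory annexin, went from 1.91 to 10.2 CPM (adjusted p = 0.000751). Pik3r1 fell from 215 to 179 CPM (edgeR adjusted p = 0.0123). Arrdc4, an arrestin family relative of Txnip, was the 1 of 19 paralogs and partners that rose (33.0 to 62.5 CPM, 1.85-fold, adjusted p = 0.00683). Of 15 clock genes 1 rose and 1 fell, the former being Rora (79.9 to 147 CPM, 1.89-fold, edgeR adjusted p = 3.50e-06). In the FoxO and quiescence list 1 of 20 rose and 2 fell, among them Ccr7 (860 to 589 CPM, adjusted p = 0.000783), against 12 lower by TSLPR.

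**Figure D4:**
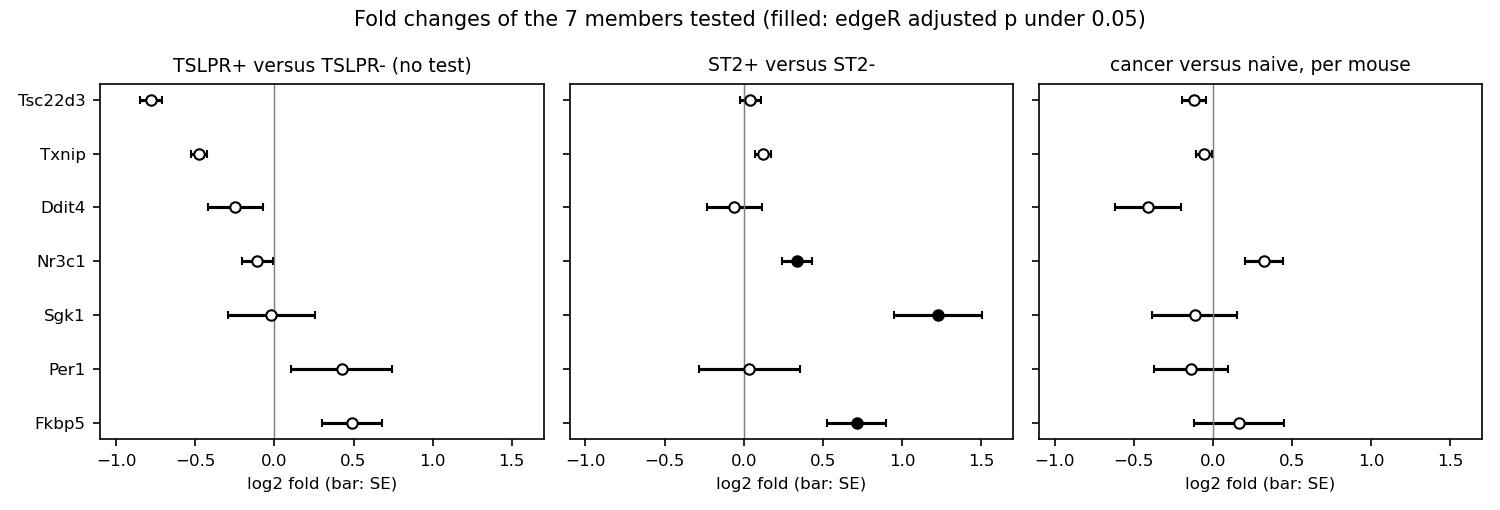
Fitted log2 differences (x axis, bar: SE) of the 7 members tested (y axis) between TSLPR gates (left, no test), ST2 gates (middle) and cancer and naive mice (right, gates summed per mouse). Filled dots mark an edgeR adjusted p under 0.05, which Nr3c1, Sgk1 and Fkbp5 reach between ST2 gates. Tsc22d3 and Txnip lie farthest below 0 between TSLPR gates, at -0.78 and -0.48.

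Between cancer and naive mice no member passed. With the 4 gates summed per mouse, 0 of 7 members were called, where edgeR called 1.21% of 15338 genes (2586 genes at an unadjusted p under 0.05) and DESeq2 1329 genes, none of them a member. The smallest adjusted p was that of Nr3c1 (0.224). Its sums were 112, 120, 155 and 138 CPM in naive mice 1 to 4 and 195, 150, 150 and 163 CPM in cancer mice 5 to 8, a difference of 0.32 ± 0.12. The naive and cancer values of Nr3c1 overlap only through mouse 3. Tsc22d3 sums were 511 ± 40.8 CPM in naive and 471 ± 36.8 CPM in cancer mice (SD, n = 4 each), and Txnip sums 873 ± 42.3 and 841 ± 33.7 CPM, with differences of -0.12 ± 0.08 and -0.05 ± 0.05.

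Within gates, 0 of 7 members were called in TSLPR-ST2- Treg (0.209% of all genes called), in TSLPR-ST2+ Treg (0.202%), in TSLPR+ST2- Treg (0.0471%) and in TSLPR+ST2+ Treg (4.16%). The unadjusted p was under 0.05 for 1101, 1568, 1100 and 3001 genes, and DESeq2 called 142, 242, 95 and 1312 genes, Ddit4 among the last. In the TSLPR+ST2+ gate 2 members had cancer and naive values without overlap, where 9.46% of all genes do. Ddit4 (chromosome 10, 59949669 to 59951834, - strand) was 17.4, 18.2, 20.0 and 27.0 CPM in naive mice 1 to 4 and 7.92, 11.0, 6.81 and 11.2 CPM in cancer mice 5 to 8. The difference was -1.16 ± 0.35 (edgeR adjusted p = 0.0560, DESeq2 adjusted p = 0.0108). Per1 (chromosome 11, 69095217 to 69109960, + strand) was 8.78, 11.5, 9.07 and 11.4 CPM in naive and 19.1, 19.7, 17.7 and 19.8 CPM in cancer mice, a difference of 0.90 ± 0.64 (edgeR adjusted p = 0.469). Per1 had 58 to 117 counts in these 8 libraries.

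In the other gates neither gene passed. The TSLPR by status test averages over ST2, so it does not compare TSLPR+ST2+ Treg with each other gate. That difference between gates was not tested. In TSLPR-ST2+ Treg Per1 was 11.2, 20.3, 8.23 and 9.54 CPM in naive mice and 0, 9.58, 9.23 and 3.44 CPM in cancer mice, with the library of mouse 5 at 0 counts. Its difference there was -1.15 ± 0.64 (edgeR adjusted p = 0.555). In TSLPR-ST2- Treg the Per1 difference was 0.07 ± 0.63 and in TSLPR+ST2- Treg -0.52 ± 0.64 (adjusted p = 1.00 in both). The differences of Ddit4 were -0.12 ± 0.35 in TSLPR-ST2- Treg, -0.07 ± 0.35 in TSLPR-ST2+ Treg and -0.42 ± 0.35 in TSLPR+ST2- Treg (adjusted p = 1.00, 0.990 and 0.950). Library measures moved with status in the TSLPR+ST2+ gate. The cancer libraries had totals of 4038718 to 5816224 counts against 6607867 to 8839946 for the naive ones. The mitochondrial share was 1.43 to 3.23% and 0.618 to 1.24%. Of 5 epithelial markers 3 were higher. The sums of epithelial markers were 109 to 3657 CPM (median 136) in cancer and 123 to 198 CPM (median 170) in naive libraries. Macrophage and dendritic cell sums were 382 to 782 CPM (median 549) in cancer and 1332 to 2177 CPM (median 1838) in naive ones. These did not overlap, though 0 of the 8 markers passed. Mean Foxp3 was 155 CPM in naive and 90.8 CPM in cancer libraries (edgeR adjusted p = 0.0431). Thinned to the lowest total, Ddit4 had -1.15 (adjusted p = 0.0603), and the part of the other measures was not tested.

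**Figure D5:**
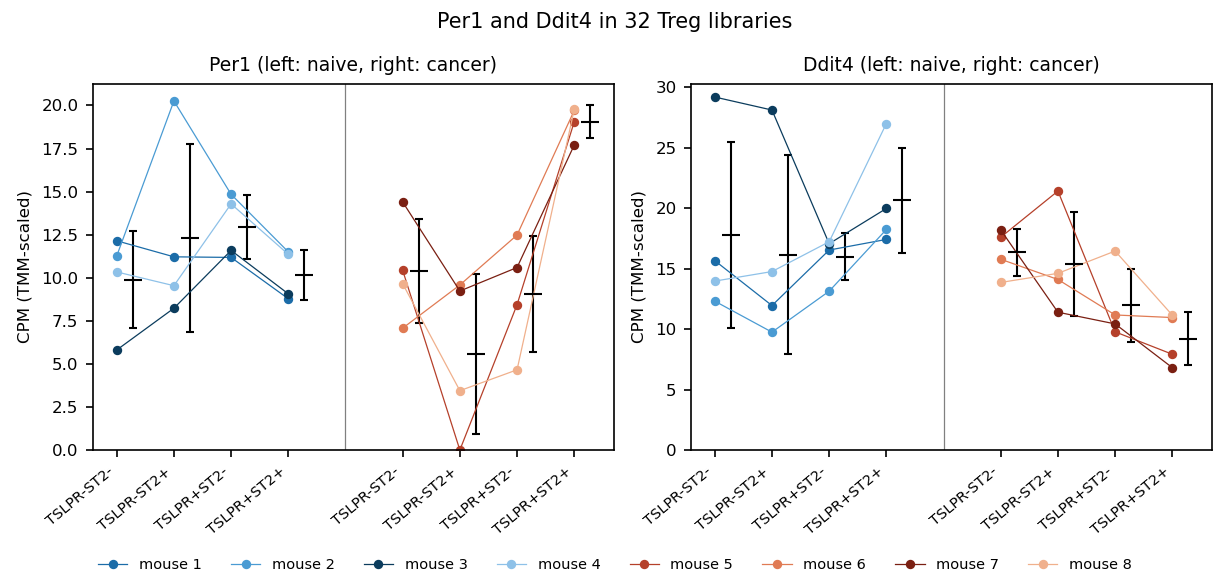
Per1 and Ddit4 in CPM (y axis) by gate (x axis), naive mice at the left and cancer mice at the right of each panel. Dots are libraries, lines join the gates of a mouse, and the black mark is the group mean ± SD (n = 4 mice). In TSLPR+ST2+ Treg the cancer mice lie above the naive mice for Per1 (17.7 to 19.8 against 8.78 to 11.5 CPM) and below them for Ddit4 (6.81 to 11.2 against 17.4 to 27.0 CPM).

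Sgk1 in ST2- Treg had log2 differences between cancer and naive mice of -1.38 ± 0.56 with TSLPR and -1.06 ± 0.56 without it, neither of which passed (edgeR adjusted p = 0.611 and 0.695). In ST2+ Treg its differences were 0.81 ± 0.55 and 0.17 ± 0.54 (adjusted p = 0.443 and 0.974). Between ST2 and status no gene passed the test of the interaction (926 at an unadjusted p under 0.05, 50 called by DESeq2), and Sgk1 was the member with the smallest p in it.

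The wider lists were also counted between cancer and naive mice. Over all genes, 1.21% passed per mouse and 4.16% in TSLPR+ST2+ Treg. Per mouse, 1 of 20 other glucocorticoid-responsive genes was lower, the mRNA decay factor Zfp36 (247 to 160 CPM, edgeR adjusted p = 0.00512), and 1 of 18 chaperones and coregulators was higher, Stip1 (494 to 650 CPM, adjusted p = 0.0174). Of 19 paralogs and partners, 16 clock genes and 20 FoxO and quiescence genes, none passed. Per mouse, 2 of 8 macrophage and dendritic cell markers were also lower in cancer, Cd68 (42.3 to 17.7 CPM, adjusted p = 0.0278) and C1qb (98.4 to 45.0 CPM, adjusted p = 0.0346). Their summed level was 11.7 to 2536 CPM (median 612) in naive and 2.51 to 1989 CPM (median 364) in cancer libraries, and the mitochondrial share was 0.616 to 1.28% and 0.958 to 3.23%. The part of these measures was not tested. In TSLPR+ST2+ Treg 1 of 21 glucocorticoid-responsive genes was higher, Il7r, and 3 were lower, Zfp36, Sesn1 and Irs2. The corepressor gene Ncor1 was 1.58-fold higher there (360 to 569 CPM, adjusted p = 0.00607) and Txn1 1.95-fold higher (199 to 388 CPM, adjusted p = 0.0112). Of 20 FoxO and quiescence genes 1 was higher in that gate, Il7r, and 4 were lower, among them Foxo1, Sesn1 and S1pr1. Il7r and Sesn1 are on both lists. Foxo1 was at 319 CPM in naive and 230 CPM in cancer mice (edgeR adjusted p = 0.0368).

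Immediate early and heat shock genes, which answer quickly to stimulation and to stress, were counted because several glucocorticoid targets overlap with them. Of 14 tested, 1 was higher and 4 were lower in TSLPR+ Treg, the higher one being Dusp1 and the lower ones the co-chaperones Dnajb1 and Dnaja1 and the factors Ier2 and Jun. Over all genes 7.97% were higher and 5.46% lower. Dnajb1 went from 463 to 369 CPM (edgeR adjusted p = 1.11e-05). Between ST2 gates, where 6.04% of all genes passed, Dnajb1 was the 1 gene of the 14 that passed (444 to 389 CPM, adjusted p = 0.00835). Per mouse, Junb, a subunit of AP-1, was 1.90-fold lower in cancer (751 to 395 CPM, edgeR adjusted p = 0.00190) and Dnaja1 1.22-fold higher, out of 13 tested. Over all genes 1.21% passed per mouse. The part of immediate early and heat shock genes in the members' values was not tested.

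Zbtb16 (chromosome 9, 48654297 to 48836222, - strand) was at 0 counts in 29 of 32 Treg libraries. The others were TSLPR-ST2- Treg of cancer mouse 7 (5.85 CPM) and mouse 5 (0.16 CPM), and TSLPR+ST2+ Treg of naive mouse 3 (5.39 CPM). It was not tested.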

How the data were processed

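Raw counts per gene, as deposited by the authors, were used for 32 Treg libraries and 1 Foxp3-negative library. The submitters' processing notes name HTSeq 0.4.1, Picard 1.134, FastQC 0.11.3, SAMtools 1.2 and the build GRCm38. No source used here gives the aligner or the strand setting. Of 53465 gene IDs, 53274 matched a symbol. Coordinates and exon lengths come from GENCODE M21, upstream windows from RefSeq.

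Counts were scaled by TMM and tested in edgeR 4.0.16 (R 4.3.3) with the quasi-likelihood F-test after filterByExpr (minimum count 10, minimum total 15), with Benjamini-Hochberg adjustment over all genes tested and a threshold of 0.05. A model of 8 groups of 4 libraries held 14861 genes, and sums of the 4 gates of each mouse 15338 genes. Fold changes are log2 values with their SE. CPM in the text are TMM-scaled, and those of marker sums and of the Foxp3-negative library use plain totals. Correlations with Tsc22d3 and Txnip used log2(CPM + 1). Libraries held 4038718 to 8839946 counts, and no 2 columns were identical. Intervals cover counting error only, since molecular identifiers are not mentioned.

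The members, the gene lists and the tests were chosen with earlier results of these data known. The genes named are the members, the sort genes, up to 4 genes of each list with the smallest p among those that passed, and the 5 genes most like Tsc22d3 and Txnip, leaving out unnamed, mitochondrial, ribosomal and receptor segment genes. Genes named outside that rule, such as Lyz2, Csf1r and Gm15441, were chosen for their role or after their values were seen. A few list genes that the rule names are not reported here.

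Mouse numbers in the labels pair the 4 gates, since they come from 1 animal. Deviations from the group means correlated by 0.0135 on average over 48 pairs of libraries of 1 mouse, with 3 of them over 0.1, and by -0.0045 over 144 pairs of different mice. Alternatives were DESeq2 1.42.0, RLE size factors, no filter, thinning to 4038718 counts, only the libraries of a gate, the mouse as a block, leaving out each mouse, leaving out the ST2+ libraries of mouse 5, and a marker covariate added after seeing the data.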

Additional observations from a re-analysis of the deposited data

Results flagged for a closer look

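In 74 groups of 4 libraries or 4 mouse sums, 11 members' groups held a value whose gap to the nearest of the others, divided by the range of the group, was above the 95% critical ratio of Dixon's test for 4 samples. Chance gives about 5% of such groups where values are normally spread. Zbtb16, at 0 counts in 29 of 32 libraries, is not, so a single library with more counts is flagged. Its flagged sums repeat the same libraries, so the share flagged cannot be set against 5%. Naive mouse 3 accounts for 5 of the 11 groups. Its Tsc22d3 was 396 CPM in TSLPR+ST2- Treg, above the other 3 mice, its Txnip 945 CPM in TSLPR-ST2- Treg, its Fkbp5 70.9 CPM in TSLPR-ST2+ Treg, and its Zbtb16 5.39 CPM in TSLPR+ST2+ Treg, which makes 1.55 CPM in its sum over gates. Cancer mouse 7 accounts for 4, with Txnip at 597 CPM in TSLPR+ST2+ Treg, Zbtb16 at 5.85 CPM in TSLPR-ST2- Treg and 1.55 CPM in its sum, and Sgk1 at 85.7 CPM in its sum, above the other cancer mice. The others are Fkbp5 of cancer mouse 6 in TSLPR+ST2+ Treg, at 49.8 CPM, and Ddit4 of naive mouse 2 in TSLPR+ST2- Treg, at 13.1 CPM.

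Sgk1 was also high in the Foxp3-negative CD44low library, which enters no comparison. It had 1998 of 7022068 counts there, or 285 CPM on plain totals (95% Poisson interval 272 to 297), while the 16 naive Treg libraries had 19.8 to 105 CPM with a median of 49.6. The 1 library has no replicate.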

How the results depend on the processing

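Over all alternatives, the 7 tested members gave 965 values counted as unchanged, 13 that lost a call and 2 that gained one. The gains were Ddit4 in TSLPR+ST2+ Treg and Txnip by ST2, both with DESeq2, and 0 called values changed sign. Unchanged means on the same side of the threshold, or for TSLPR differences moved by less than the SD between mice. The sign of values without a call was not compared. Some changed it, such as Sgk1 in TSLPR by status (0.16, with -0.58 to 0.47 over alternatives). All 13 losses are ST2 differences. Nr3c1 passed in 7 of 15 alternatives, Fkbp5 in 11 and Sgk1 in 14, with the marker covariate ending all 3 calls. Over mice left out in turn 1 to 3 members were called. The Tsc22d3 difference by TSLPR stayed at -0.81 to -0.73 and that of Txnip at -0.49 to -0.44. With the mouse as a block, ST2 differences were 0.33 for Nr3c1, 0.61 for Fkbp5 and 1.23 for Sgk1 (edgeR adjusted p = 0.0305, 0.0189 and 0.00419), and 3 genes passed the TSLPR by ST2 interaction in place of 0; the block changed no other call of a member.

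Counts of genes moved more. DESeq2 called 1329 genes per mouse (edgeR 186), 142 in TSLPR-ST2- Treg (31), 242 in TSLPR-ST2+ (30), 95 in TSLPR+ST2- (7) and 1312 in TSLPR+ST2+ (618), and 58, 120 and 50 in the interactions of TSLPR with status, TSLPR with ST2 and ST2 with status. It called 1 member, Ddit4, in TSLPR+ST2+ Treg. Fitted on the 8 libraries of a gate alone, TSLPR-ST2+ had 2 genes, TSLPR+ST2- 2 and TSLPR+ST2+ 17. Without the filter, TSLPR+ST2- had 0 and TSLPR+ST2+ 358. With the covariate, ST2 had 35 genes (0 members) and TSLPR 551. Without the ST2+ libraries of mouse 5, TSLPR by ST2 had 3. Without 1 mouse in turn, counts were 28 to 98 per mouse, 11 to 24, 4 to 37, 0 to 18 and 171 to 749 in the gates in that order, 459 to 783 by ST2, 1303 to 1939 by TSLPR, 0 to 1 for TSLPR by status and 0 to 2 for TSLPR by ST2. The cause of these moves was not tested. Per1 had 0 to 131 counts in a library and Ddit4 30 to 240. Thinned to the lowest total, Ddit4 in TSLPR+ST2+ Treg had -1.15 (edgeR adjusted p = 0.0603).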

Other observations

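The Foxp3-negative CD44low library of a naive mouse, not used in any comparison, gives the members' levels in T cells outside the Treg gate. It had 2 counts of Foxp3 (0.285 CPM). On plain totals Tsc22d3 was 648 CPM, inside the 305 to 731 CPM of the 16 naive Treg libraries, and Txnip 841 CPM (599 to 1123 in Treg). Nr3c1 was 163 CPM, Fkbp5 25.8, Ddit4 24.5 and Per1 6.84 CPM, each within the range of naive Treg. Zbtb16 had 0 counts, which allows up to 0.525 CPM by the Poisson interval. With 1 library there is no test.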
